A study of Oryza sativa with 12 samples.

Results

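The subject is the set of rice loci whose transcripts were lowered most by simulated drought in both of the cultivars studied. It holds 150 loci, taken from 14494 named loci whose mean FPKM (sequenced fragments relative to the length of the transcript and the size of the library) was 5 or more in the control seedlings of each cultivar. The whole table holds 39093 loci, of which 36626 carry a locus name. For each locus the change in mean log2(FPKM + 1), drought minus control, was taken in each cultivar, and the smaller of its falls served as its score. The members were thus chosen by their drought changes in all 12 libraries, the 150 lowest scores defining the set, so the changes given for these loci are a description without a test. This scale understates the change of loci with low values.

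Seedlings of Oryza sativa, 21 days old, were grown in a culture room and then kept for 6 h in 20% PEG 6000 or in RO water. Polyethylene glycol is a polymer that lowers the water potential of the solution around the roots, and PEG is called drought here. N22 is described by the submitters as drought tolerant and IR64 as drought sensitive. The 4 groups are N22 drought, N22 control, IR64 drought and IR64 control, with 3 libraries each and 12 in all. No organ is named in the labels, and the seedlings carried no stated transgene or mutation. One osmotic agent at 1 concentration and 1 time stands for drought in all of these values.

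In plant biology, photosynthetic carbon fixation runs on Rubisco, the enzyme that joins carbon dioxide to a sugar phosphate, and on the reducing power that ferredoxin carries away from photosystem I. Growing grass leaves and roots enlarge their cells by loosening the wall with expansins, and divide them in zones where cytokinin signalling is active. Loss of water is known to slow growth in rice and to close stomata, which limits the uptake of carbon dioxide.

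Between 30625 and 32107 transcript rows were above 0 in each library, with a total FPKM of 684524.6 to 761822.1. FPKM carries no read numbers, so the depth behind each value is unknown. The design text calls the replicates biological, but separate cultures are not stated, so p-values measure only the spread between these samples. The root, green leaf and dividing cell markers used were all above 0 in all 4 groups. The summed FPKM of 5 of 6 root markers whose symbols could be checked ran from 205 to 298 in N22 drought, against 306 to 382 in N22 control, and from 347 to 416 in IR64 drought, against 399 to 440 in IR64 control. That of 4 of 8 green leaf markers, chosen the same way, ran from 1590 to 4150 in N22 drought, against 7300 to 8960 in N22 control, and from 1900 to 2830 in IR64 drought, against 6490 to 8810 in IR64 control. RBCS2 and RCA, which are in the set described here and were thus chosen by their falls, are among these leaf markers. RBCS2 made up the larger part of the sum in all 4 groups, and CAB1R, another of them, rose under drought in both cultivars. The part of tissue makeup in the results was not tested. The third drought library of N22 lay nearer to the controls than the other two, and results that rest on it are given with and without it.

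Most members lay above the median abundance of eligible loci in control seedlings, 116 of 150 in N22 and 114 in IR64. Their group means had a median of 12.6 FPKM in N22 drought, against 48.6 FPKM in N22 control, and of 9.66 FPKM in IR64 drought, against 41.2 FPKM in IR64 control. All 14494 eligible loci had a median of 18.6 FPKM in N22 control and 18.9 FPKM in IR64 control. The drought mean was a median of 26.9% of the control mean in N22 (14.1% to 35.7%) and 24.2% in IR64 (5.98% to 39.1%). On the log2(FPKM + 1) scale the median change was -2.01 in N22 and -1.93 in IR64, beside medians of -0.02 and -0.01 over all eligible loci. By the median percentage the fall was thus larger in IR64, and by the median log2 change it was larger in N22. Without the third drought library of both cultivars the median log2 change was -2.49 in N22 and -2.01 in IR64. In these seedlings, fewer cells of a type and less RNA per cell cannot be told apart.

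Called lower here means a limma adjusted p of at most 0.05 with a fall of at least 1 on the log2 scale. By that call 148 members were lower in N22, where 5.17% of all 24276 loci tested were, and 145 in IR64, where 4.02% were. All 3 drought values lay below all 3 control values for 149 members in each cultivar, beside 26.1% of loci tested in N22 and 23.2% in IR64. These contrasts chose the members, and nothing is read from these counts. Without the third drought library of both cultivars, 150 members were called lower in N22 and 149 in IR64, beside 2007 and 1346 of all loci. With the libraries of each cultivar fitted alone, 111 members were called lower in N22 and 144 in IR64, beside 985 and 943 of all loci.

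**Figure D1:**
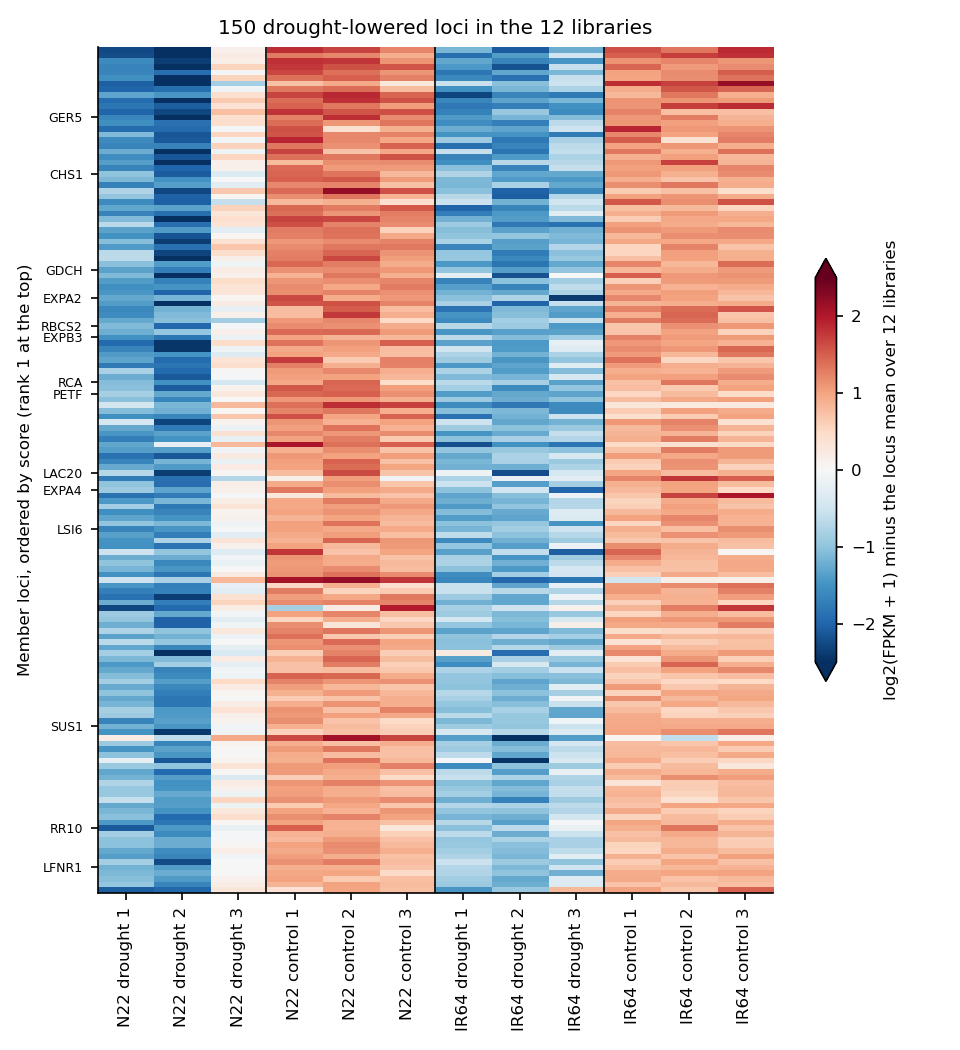
Each row is 1 of the 150 loci, ordered by score, and each column 1 of the 12 libraries. Colour gives log2(FPKM + 1) minus the mean of the locus over the 12 libraries, and names mark the 14 loci with a gene symbol. Control libraries are mostly red and drought libraries mostly blue in both cultivars, while N22 drought library 3 stays near white.

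Together the 150 loci made up 0.752%, 0.491% and 1.78% of the summed FPKM in the 3 N22 drought libraries, against 3.98%, 4.05% and 3.45% in N22 control. In IR64 drought they made up 0.939%, 0.788% and 0.866%, against 3.18%, 3.75% and 3.52% in IR64 control. The groups did not overlap in either cultivar. Without RBCS2, the most abundant of them, the other members took 0.534%, 0.376% and 1.32% in N22 drought, against 2.87%, 2.98% and 2.51% in N22 control.

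Only 14 of the 150 loci could be given a symbol. No table used here pairs the rice locus numbers with gene products, and symbols were kept only where a gene list of another rice assembly placed them at the matching position. Of these 14, 8 come from the gene lists, and PETF, LFNR1, GDCH, GER5, LAC20 and CHS1 were named after their values had been seen. Another 8 stand in the lists with a symbol that could not be checked, 4 of them listed after their values had been seen. They are 1 small subunit of Rubisco, 2 Calvin cycle loci, 1 photosystem locus, 1 photorespiration locus and 3 of other chloroplast proteins by those lists. The last 3 include a locus listed as a light-harvesting protein of photosystem I. Unless stated otherwise, counts over a list cover only its checked symbols. The 136 members without a checked symbol are described by their values alone, and 8 members are rows that name several neighbouring loci.

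The lowest score belonged to LOC_Os04g11970 on chromosome 4, with no product assigned. It measured 3.14, 1.54 and 20.4 FPKM in N22 drought, against 70.0, 62.4 and 44.7 FPKM in N22 control. Its IR64 values were 7.90, 3.63 and 7.29 FPKM in drought, against 58.7, 48.4 and 70.3 FPKM in control. Its drought and control libraries were far apart in both cultivars, and N22 drought library 3 was the highest of the 6 drought libraries. The changes were -3.28 in N22 and -3.09 in IR64 (log2 scale).

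Second came LOC_Os02g13660 on chromosome 2, also without a product. It measured 8.82, 6.15 and 51.8 FPKM in N22 drought, against 111, 104 and 84.7 FPKM in N22 control. The IR64 libraries gave 11.4, 16.2 and 31.2 FPKM in drought, against 127, 150 and 161 FPKM in control. The groups did not overlap, and the third drought library was the highest of its group in each cultivar. The score ran from -3.088 for the first locus to -1.598, -1.594 and -1.588 for the last members, and the first loci outside the set had scores of -1.586, -1.583 and -1.582. The edge of the set is therefore not a gap in the data, and 747 eligible loci fell by at least 1 on the log2 scale in both cultivars.

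**Figure D2:**
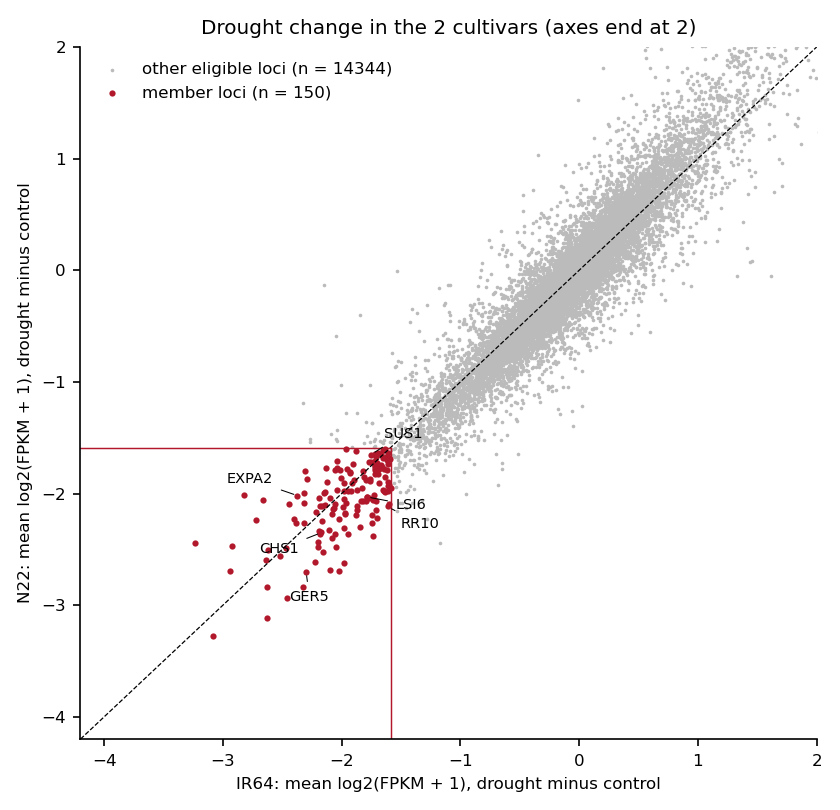
The horizontal axis is the change in IR64 and the vertical axis the change in N22, both as mean log2(FPKM + 1), drought minus control. Grey points are the 14344 other eligible loci, red points the 150 members, red lines the score of the last member and the dashed line equal change, and points past 2 are outside the axes. The members form the lower left end of a continuous cloud and lie close to the dashed line.

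Carbon fixation gave the most abundant member. RBCS2 (LOC_Os12g17600), a small subunit of Rubisco, measured 1580, 871 and 3300 FPKM in N22 drought, against 7700, 7540 and 6450 FPKM in N22 control. Values in IR64 were 2090, 1800 and 1250 FPKM in drought, against 5460, 7490 and 7240 FPKM in control. Drought libraries were below control libraries without overlap, and the drought mean was 26.5% of the control mean in N22 and 25.5% in IR64. It was 16.9% in N22 and 28.9% in IR64 when drought library 3 of both was left out. RBCS2 was not called once low loci were kept in the fit (adjusted p = 0.0559 in N22 and 0.0845 in IR64), nor with the libraries of 1 cultivar alone (adjusted p = 0.0981 in N22 and 0.0814 in IR64). Rice has several near-identical small subunit genes, so the split of fragments between them is uncertain.

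RCA (LOC_Os11g47970) encodes Rubisco activase, the chaperone that frees Rubisco of bound sugar phosphates. It measured 221, 165 and 346 FPKM in N22 drought, against 919, 1300 and 648 FPKM in N22 control. In IR64 it measured 297, 266 and 185 FPKM in drought, against 781, 1200 and 901 FPKM in control. The drought mean was 25.5% of the control mean in N22 and 25.9% in IR64, but 20.2% in N22 and 29.3% in IR64 without the third drought libraries. Among IR64 drought libraries the third was the lowest for both RBCS2 and RCA, whereas among N22 drought libraries it was the highest.

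Electron transfer on the stromal side of photosystem I gave a pair of members. PETF (LOC_Os08g01380), a ferredoxin, measured 181, 133 and 385 FPKM in N22 drought, against 872, 913 and 713 FPKM in N22 control. Its IR64 values were 122, 133 and 128 FPKM in drought, against 462, 559 and 445 FPKM in control. LFNR1 (LOC_Os06g01850), the leaf ferredoxin-NADP reductase that hands these electrons to NADP, averaged 150 ± 84.4 FPKM in N22 drought and 441 ± 29.4 FPKM in N22 control (SD, n = 3 each). Its IR64 means were 146 ± 30.6 FPKM in drought and 439 ± 17.3 FPKM in control. The drought mean of LFNR1 was 34.0% of its control mean in N22 and 33.3% in IR64, and that of PETF 28.0% in N22 and 26.1% in IR64. Without the third drought libraries it was 23.0% in N22 and 30.1% in IR64 for LFNR1. For PETF it was then 18.8% in N22 and 26.0% in IR64.

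Photorespiration recovers the carbon that Rubisco loses when it reacts with oxygen. GDCH (LOC_Os10g37180), the H subunit of the mitochondrial glycine decarboxylase, measured 174, 134 and 504 FPKM in N22 drought, against 978, 1010 and 941 FPKM in N22 control. The IR64 libraries gave 223, 169 and 222 FPKM in drought, against 786, 840 and 921 FPKM in control. Control libraries of each cultivar lay close together and drought libraries well below them. GLO1, a glycolate oxidase of the same pathway that is outside the set, averaged 344 FPKM in N22 drought and 709 FPKM in N22 control, a log2 change of -1.08 (limma adjusted p = 0.00277). Its N22 change shrank to -0.89 without N22 drought library 1. Its IR64 change of -0.99 missed the size threshold, but passed with quantile scaling (-1.01), without IR64 control library 1 (-1.04) and without IR64 drought library 3 (-1.09).

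None of the 8 loci listed as Calvin cycle enzymes had a symbol that passed the check, so their identity is uncertain. Of these 8 loci, 7 fell in N22 and 6 in IR64, none rose, and 2 are members. Light-harvesting and photosystem loci gave calls in both directions. Of 23 listed, the 4 with a checked symbol held no member, and of these 2 rose in N22 and 1 rose in IR64, with none lower. Of 18 tested loci whose symbol did not pass the check, 3 fell and 2 rose in each cultivar, and 1 is a member. The median change over all 22 tested was -0.20 in N22 and -0.45 in IR64. Another member, listed as a light-harvesting protein of photosystem I after its values were seen, is counted with other chloroplast proteins instead. Calls higher took 6.55% of all loci tested in N22 and 4.35% in IR64. CAB1R, a chlorophyll-binding antenna protein of photosystem II, measured 337, 254 and 216 FPKM in N22 drought, against 49.6, 28.3 and 45.3 FPKM in N22 control. Its log2 change was 2.70 in N22 (adjusted p = 0.000356) and 2.07 in IR64 (adjusted p = 0.00179).

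Chlorophyll synthesis also held no member, and of 9 genes tested 5 fell in N22 and 2 in IR64, with none higher. The medians were -1.04 in N22 and -0.65 in IR64, beside -0.01 and 0.00 over all loci tested. CHLI, a subunit of the magnesium chelatase, averaged 19.2 FPKM in N22 drought and 57.1 FPKM in N22 control, a log2 change of -1.62 (adjusted p = 0.00147). Its IR64 change was -1.21 (adjusted p = 0.00733). PORA, a protochlorophyllide reductase that needs light, changed by -1.48 in N22 (adjusted p = 0.00694) and -1.58 in IR64 (adjusted p = 0.00761). Without N22 drought library 2, 3 of the 9 fell in N22. In IR64 4 fell with a pseudocount of 0.1, with quantile scaling and without any 1 of IR64 control libraries 1 and 3 and IR64 drought libraries 1 and 3, and 1 rose with that pseudocount and without IR64 control library 2 or IR64 drought library 3.

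Of 5 nitrogen uptake and assimilation genes, 2 fell in both cultivars and none rose. These were GS2, the plastid glutamine synthetase, and GLU, a ferredoxin-dependent glutamate synthase, which work together in leaves and reassimilate the ammonium of photorespiration. GS2 averaged 152 FPKM in N22 drought and 382 FPKM in N22 control, a log2 change of -1.35 (adjusted p = 0.00136). Its IR64 change was -1.42 (adjusted p = 0.00172). GLU changed by -1.14 in N22 (adjusted p = 0.000944) and by -1.22 in IR64 (adjusted p = 0.00111). The call of GLU in N22 was lost without N22 control library 2, where the change was -0.99.

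**Figure D3:**
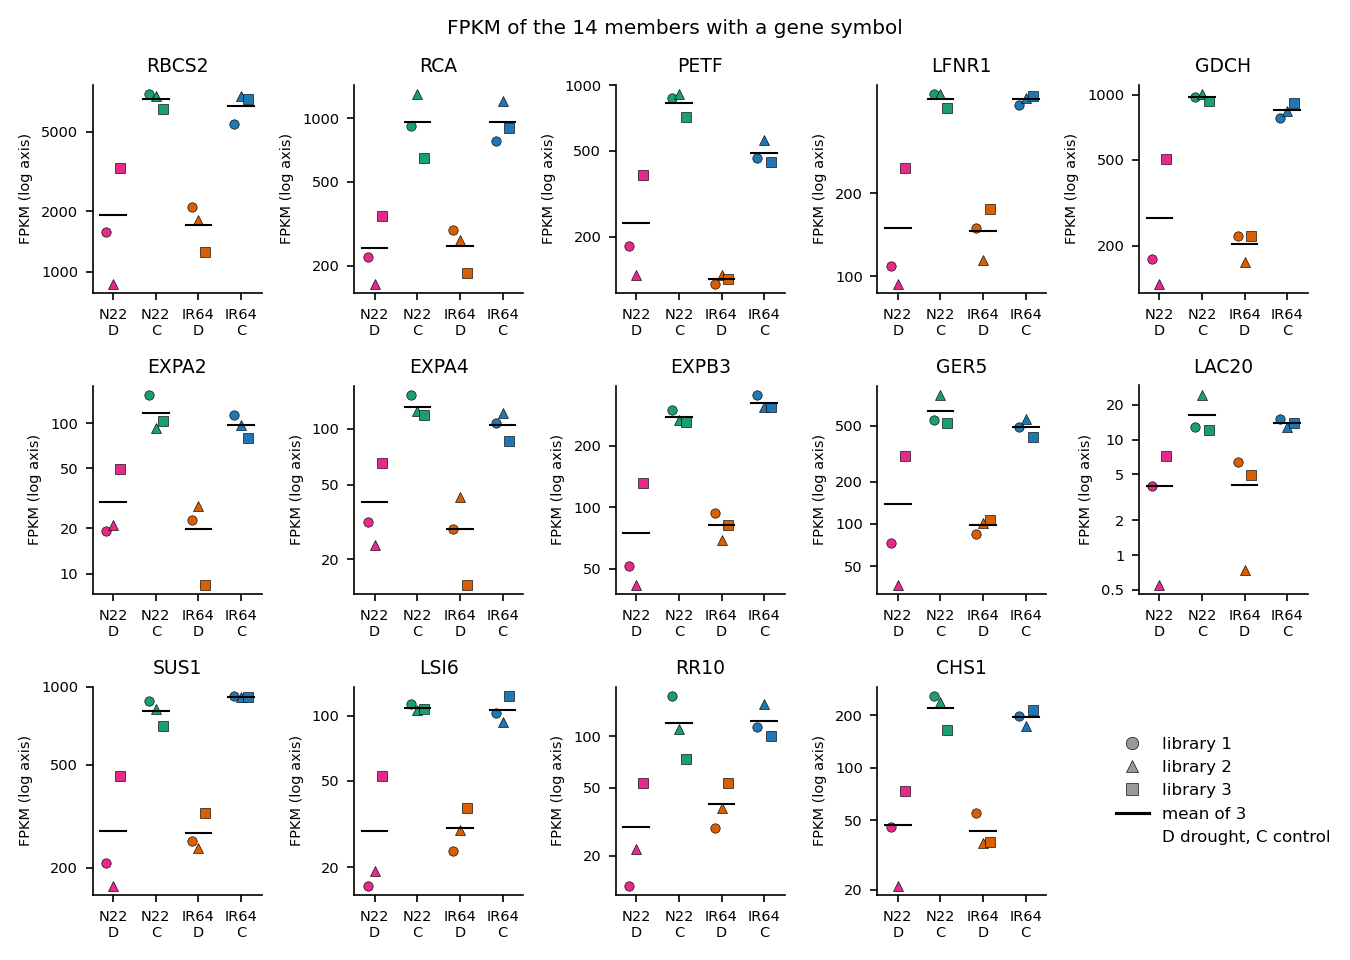
FPKM on a log axis in each library for the 14 members with a symbol, with D for drought and C for control, a marker shape for each library number and a bar at the mean of 3. In all 14 panels the drought points lie below the control points of the same cultivar, and N22 drought library 3 (square) is the highest N22 drought point.

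Expansins, apoplastic proteins that loosen the wall of enlarging cells, gave 3 members, EXPA2, EXPA4 and EXPB3. EXPA2 (LOC_Os01g60770) measured 19.3, 21.2 and 49.9 FPKM in N22 drought, against 154, 92.7 and 104 FPKM in N22 control. Values in IR64 were 22.8, 28.1 and 8.46 FPKM in drought, against 113, 97.5 and 80.3 FPKM in control. EXPA4 (LOC_Os05g39990) kept 30.6% of its control mean in N22 and 27.6% in IR64, but 21.0% in N22 and 34.5% in IR64 without the third drought libraries. EXPB3 (LOC_Os10g40720) measured 51.3, 41.8 and 132 FPKM in N22 drought, against 299, 267 and 262 FPKM in N22 control. Its IR64 values were 93.7, 69.4 and 81.5 FPKM in drought, against 354, 308 and 308 FPKM in control. In these 3 genes no drought library reached a control library of its cultivar.

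Of 16 expansins tested, 6 were lower in each cultivar, 5 of them in both, and none was higher. Without N22 drought library 2, 3 were lower in N22 and the same number in both. The medians were -0.76 in N22 and -0.81 in IR64. EXPB4, which bears the locus number next to EXPB3 on chromosome 10, averaged 89.7 FPKM in N22 drought and 206 FPKM in N22 control. It changed by -1.29 in each cultivar (adjusted p = 0.00312 in N22 and 0.00473 in IR64), but by -0.98 in N22 without N22 drought library 2. EXPB11 fell by 1.19 in N22 (adjusted p = 0.0488) and by 2.32 in IR64 (adjusted p = 0.00418). The N22 call of EXPB11 did not hold with the replicate number as a block (adjusted p = 0.055) or in 5 of 6 fits without 1 N22 library (adjusted p from 0.0848 to 0.155). EXPA6 had a log2 change of 0.60 in N22 and 0.32 in IR64, and EXPA1 one of 0.08 in N22 and -0.17 in IR64, neither of which passed.

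Wall synthesis held no member. Of 14 genes for cellulose and other wall polymers, 3 fell in both cultivars, none rose, and the medians were -0.74 in N22 and -0.66 in IR64. BC1, a COBRA-like protein of secondary walls, changed by -1.41 in N22 (adjusted p = 0.00102) and -1.25 in IR64 (adjusted p = 0.00257). CESA1, a catalytic subunit of primary wall cellulose synthase, averaged 68.5 FPKM in N22 drought and 157 FPKM in N22 control. It changed by -1.22 in N22 (adjusted p = 0.00226) and by -1.06 in IR64 (adjusted p = 0.00604), and its IR64 change shrank to -0.89 without IR64 drought library 2. CESA4 made the third, but its N22 change shrank to -0.94 without N22 control library 1 and to -0.93 without N22 drought library 2. The IR64 call was lost for CESA4 without IR64 control library 3 and for CESA1 without IR64 control library 1. When drought library 3 of both cultivars was left out, 6 of the 14 fell in N22 and 5 in IR64, all 5 in both. In N22 5 fell with quantile scaling or without N22 control library 3, and 6 without N22 drought library 3.

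A pair of members act in the apoplast around the wall. GER5 (LOC_Os08g35760), a germin-like protein, measured 73.4, 37.0 and 303 FPKM in N22 drought, against 550, 826 and 520 FPKM in N22 control. In IR64 it measured 85.2, 102 and 107 FPKM in drought, against 488, 560 and 416 FPKM in control. The N22 drought libraries spread widely and yet stayed below control. LAC20 (LOC_Os11g42220), a laccase of the family that oxidises lignin precursors, was the least abundant named member. It measured 3.95, 0.555 and 7.28 FPKM in N22 drought, against 12.9, 24.4 and 12.2 FPKM in N22 control, and 6.41, 0.735 and 4.95 FPKM in IR64 drought, against 15, 13 and 13.9 FPKM in IR64 control. LAC20 was 1 of the 5 members that missed the call in IR64, and its N22 call was lost without N22 drought library 1 or 2 or N22 control library 2 (adjusted p of up to 0.0944). With the N22 libraries alone neither GER5 (adjusted p = 0.0526) nor LAC20 (adjusted p = 0.0676) was called in N22.

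Of 11 replication and division genes tested none is a member, and 9 fell in N22 and 8 in IR64, all 8 in both cultivars. The IR64 count rested on single libraries. It became 0 without IR64 control library 1, IR64 control library 2 or IR64 drought library 2, 1 without IR64 control library 3 and 2 without IR64 drought library 1, and was 4 with no filter on low values. The N22 count stayed between 7 and 11 in every setting tried. The medians were -1.5 in N22 and -1.11 in IR64. PCNA, the sliding clamp of DNA polymerase, measured 13.6, 9.44 and 33.8 FPKM in N22 drought, against 59.0, 53.4 and 59.1 FPKM in N22 control. Its changes were -1.74 in N22 (adjusted p = 0.00615) and -1.36 in IR64 (adjusted p = 0.0242). The IR64 call of PCNA was lost in 5 of 6 fits that left out an IR64 library, with adjusted p from 0.0508 to 0.09. MCM4, a subunit of the replicative helicase, averaged 3.47 FPKM in N22 drought and 11.1 FPKM in N22 control, a log2 change of -1.64 (adjusted p = 0.00713). In IR64 MCM4 changed by -1.18, and that call was lost in 9 settings, among them 5 of 6 fits that left out an IR64 library (adjusted p from 0.0738 to 0.128). The summed FPKM of 10 dividing cell markers, which overlap this list, ran from 28.7 to 109 in N22 drought, against 157 to 186 in N22 control, and from 39.7 to 81.8 in IR64 drought, against 136 to 162 in IR64 control. The part of dividing cell numbers in the result was not tested.

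Type-A response regulators are induced by cytokinin and damp its signal. RR10 (LOC_Os12g04500) is a member and measured 13.4, 21.8 and 53.3 FPKM in N22 drought, against 172, 111 and 73.7 FPKM in N22 control. Its IR64 values were 28.9, 37.9 and 53.2 FPKM in drought, against 114, 154 and 100 FPKM in control. The highest N22 drought value and the lowest N22 control value came from libraries with the number 3. Of 7 type-A regulators tested, 4 fell in both cultivars and none rose, with medians of -1.42 in N22 and -1.31 in IR64. RR9, which is nearly identical in sequence to RR10 so that fragments may be shared, changed by -1.96 in N22 (adjusted p = 0.00588) and -1.44 in IR64 (adjusted p = 0.0297). RR2 changed by -1.93 in N22 (adjusted p = 0.00331) and -1.42 in IR64 (adjusted p = 0.0175). Leaving out single IR64 libraries ended the IR64 calls of RR10 in 4 of 6 fits, of RR9 in 5 and of RR2 in 2, with adjusted p of up to 0.102. The 4 that fell in both cultivars became 1 without IR64 drought library 1 or IR64 control library 2, and 2 without IR64 control library 1 or IR64 drought library 2.

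Sugar and mineral transport gave 1 member each. SUS1 (LOC_Os03g28330), a sucrose synthase that cleaves sucrose into fructose and UDP-glucose, measured 209, 171 and 452 FPKM in N22 drought, against 880, 819 and 707 FPKM in N22 control. The IR64 libraries gave 255, 238 and 327 FPKM in drought, against 920, 911 and 911 FPKM in control. IR64 control libraries were almost equal, and each drought library was far below them. Of 7 sugar transport and cleavage genes, 2 fell and 2 rose in both cultivars. Without IR64 drought library 1 or 2 or IR64 control library 3, 1 fell and 1 rose in IR64. In IR64 1 fell without IR64 control library 2 and 1 rose without IR64 control library 1, and in N22 1 rose without N22 drought library 2. SUT1, a sucrose transporter, rose with log2 changes of 1.17 in N22 (adjusted p = 0.00356) and 1.43 in IR64 (adjusted p = 0.0024), and SWEET13, a sugar exporter, with 1.85 in N22 (adjusted p = 0.00407) and 1.34 in IR64 (adjusted p = 0.0224). The IR64 call of SWEET13 was lost in 4 of 6 fits that left out an IR64 library (adjusted p from 0.0537 to 0.0832), and SUT1 changed by 0.96 in N22 without N22 drought library 2.

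LSI6 (LOC_Os06g12310), a channel that moves silicic acid out of the xylem in rice leaves, measured 16.5, 19.3 and 52.6 FPKM in N22 drought, against 113, 106 and 107 FPKM in N22 control. Values in IR64 were 23.9, 29.7 and 37.7 FPKM in drought, against 103, 93 and 123 FPKM in control. Every drought library was below every control library. The root silicon transporters differed from it in size of change. LSI1, the influx channel, changed by -0.49 in N22 and -0.32 in IR64, and LSI2, the efflux carrier, by -0.24 in N22 and 0.02 in IR64, none of them called. LSI6 was the 1 of 6 ion and silicon transporters that fell.

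Water channels of the plasma membrane and tonoplast held no member. Of 15 tested, 1 fell and 1 rose in N22, and 1 rose in IR64. When drought library 3 of both cultivars was left out, 2 fell in both. PIP2-7 measured 78.4, 62.5 and 246 FPKM in N22 drought, against 520, 316 and 382 FPKM in N22 control, a log2 change of -1.89 (adjusted p = 0.00829). The N22 call was lost when the N22 libraries alone were fitted (adjusted p = 0.0542). Its IR64 change of -1.23 was not called (adjusted p = 0.0605), but was with the replicate block (adjusted p = 0.0316). TIP1-2, a tonoplast channel, rose by 1.94 in N22 (adjusted p = 0.00898) and 1.59 in IR64 (adjusted p = 0.0281). Its IR64 call was lost in 4 of 6 fits that left out an IR64 library (adjusted p from 0.0614 to 0.0942), with no filter on low values (0.0552) and with the IR64 libraries alone (0.0898).

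CHS1 (LOC_Os11g32650) encodes chalcone synthase, which opens flavonoid synthesis. It measured 45.8, 21.2 and 73.8 FPKM in N22 drought, against 258, 239 and 164 FPKM in N22 control. In IR64 it measured 55.0, 37.2 and 37.6 FPKM in drought, against 199, 174 and 214 FPKM in control. The drought mean was 21.3% of the control mean in N22 and 22.1% in IR64, but 15.2% in N22 and 23.6% in IR64 without the third drought libraries. In the limma test of the difference between the cultivars CHS1 was not called, with all libraries (-0.18, adjusted p = 1.0) or without N22 drought library 3 (-0.58, adjusted p = 0.575).

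**Figure D4:**
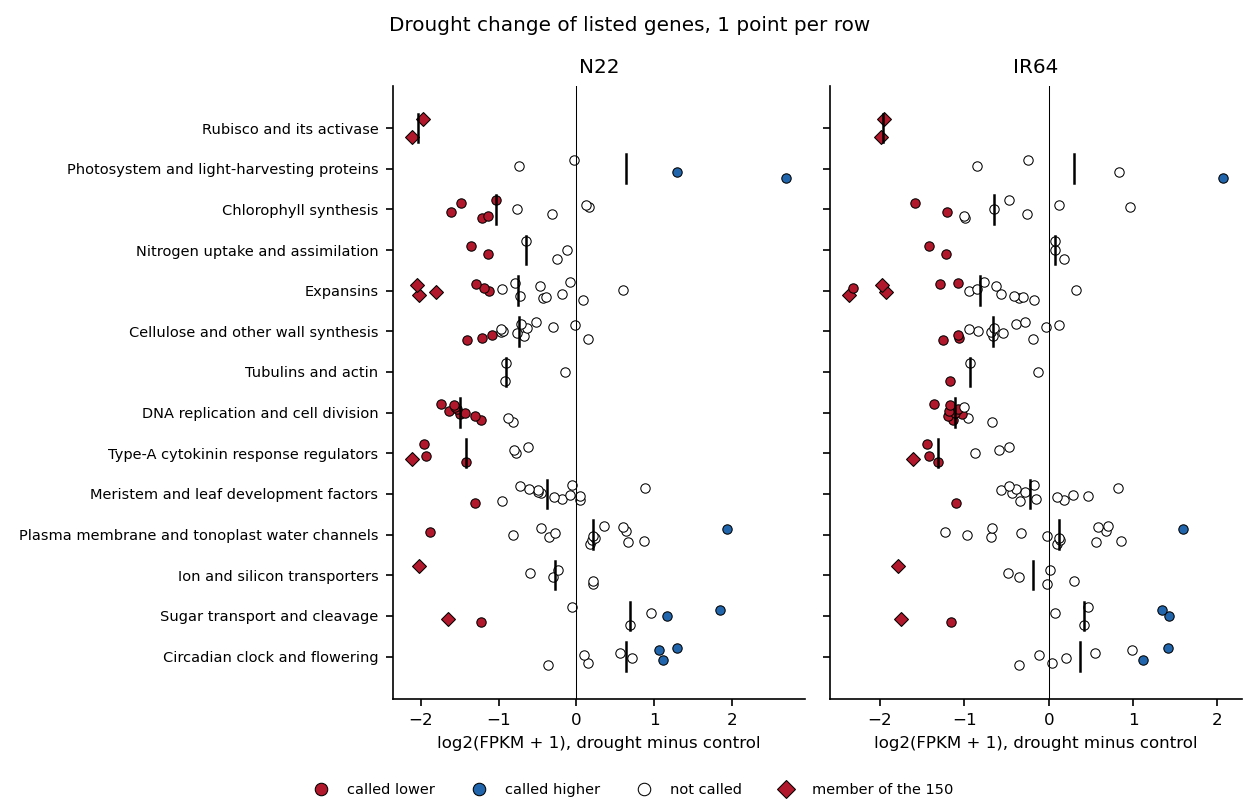
Each point is 1 table row of a listed gene, placed by its change in log2(FPKM + 1), drought minus control, with N22 at the left and IR64 at the right. Red is called lower, blue called higher and white not called, diamonds are members of the set and black bars list medians. Replication genes, type-A regulators and expansins lie mostly below 0, and sugar transport and clock genes hold calls above 0.

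Over the first gene lists 30 loci fell in both cultivars, not counting genes added after their values were seen. Of the 30, 8 are members, which the rule chose by their falls. Over all 24276 loci tested 761 (3.13%) fell in both. No share of the listed loci is given, and the 30 is not set against that share. Without IR64 control library 1, IR64 control library 2 or IR64 drought library 2, the 30 became 19, 16 and 18. Without the third drought library of both cultivars it was 44. Meristem and leaf development factors had 1 of 14 lower in both cultivars, a call that was lost in IR64 without IR64 control library 1 or 2 or IR64 drought library 1 or 2. Clock and flowering genes had none lower, with 3 of 8 higher in N22 and 2 of 8 in IR64, each of which became 1 without control library 2 of its cultivar. Growth hormone genes had 2 lower and 2 higher in IR64 and 1 higher in N22, of 8. DWARF4 lost its IR64 call without IR64 drought library 2 or IR64 control library 3 (-0.97 in each). BU1 was called lower in N22 without N22 drought library 1 (-1.16) or 3 (-1.12) or N22 control library 3 (-1.22). Jasmonate synthesis had no call among 4 genes, and 2 tested root markers had none. Of 2 rows of DREB1 cold and drought factors 1 rose in N22. The row of DREB1A was called lower in both cultivars without the third drought library of both (-1.22 in N22 and -1.37 in IR64). All 3 genes listed because drought is known to raise them, RAB16A, LEA3 and NAC6, rose in both cultivars. The lists were chosen with results of these data known, so their direction is not independent evidence.

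The member without a checked symbol that had the highest control level lies on chromosome 1. It measured 476, 439 and 1040 FPKM in N22 drought, against 2340, 2520 and 1900 FPKM in N22 control. Its IR64 values were 485, 461 and 333 FPKM in drought, against 1560, 2060 and 1920 FPKM in control. As for RBCS2 and RCA, the third library was the highest of the N22 drought libraries and the lowest of the IR64 drought libraries.

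Cultivar levels were not used by the rule as such, although the same libraries enter it. In control seedlings 5 of 150 members (3.33%) were called between N22 and IR64, 3 higher and 2 lower in N22. The same call took 9.92% of all loci tested (5.07% higher and 4.84% lower in N22) and 1.89% of the loci that meet the FPKM floor. Under drought 4 of 150 (2.67%) were called, all higher in N22, beside 10.7% of all loci tested (5.82% higher and 4.91% lower in N22) and 2.43% of those that meet the floor. Among the members the share was below that of all loci tested and of the same order as that of loci that meet the floor. The median difference, N22 minus IR64, was 0.16 in control and 0.04 under drought, with -0.03 and -0.02 over all eligible loci.

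The smallest adjusted p of the members in these comparisons belonged to a locus on chromosome 6. It measured 56.2, 60.7 and 45.5 FPKM in N22 control, against 8.84, 13.9 and 13.7 FPKM in IR64 control, a log2 difference of 2.08 ± 0.35 (SE; limma adjusted p = 0.00124). Under drought it measured 8.45, 6.66 and 22.9 FPKM in N22, against 3.34, 2.44 and 2.86 FPKM in IR64, a difference of 1.63 (adjusted p = 0.00575). N22 libraries were higher in both conditions without overlap, and 3 members in all were called in the same direction in both. A second, on chromosome 2, differed by 1.37 in control (adjusted p = 0.0221) and by 1.38 under drought (adjusted p = 0.0184). The third, a row naming 2 loci of chromosome 3, differed by 1.94 in control (adjusted p = 0.00789) and by 2.0 under drought (adjusted p = 0.0059).

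These counts rest on single libraries. The 5 in control became 2 or 3 without any of the 6 control libraries and 3 without IR64 drought library 3. The 4 under drought became 12, all higher in N22, without N22 drought library 2, and 15, of which 3 were higher and 12 lower in N22, without N22 drought library 3. Without the third drought library of both cultivars there were 8, of which 2 were higher and 6 lower in N22. The direction of most of these member calls under drought differed with which N22 drought library was left out. Shares over all loci in these fits are not given. The counts can thus not be set against a background and are not read as a trait of the members. None of the 14 named members was called between the cultivars in either condition. PETF had the smallest adjusted p among them, at 0.77 in control (adjusted p = 0.121) and 0.72 under drought (adjusted p = 0.126), and its drought difference was called without N22 drought library 2 (1.05, adjusted p = 0.0211). RR10 was called lower in N22 drought than in IR64 drought without N22 drought library 3 (-1.13, adjusted p = 0.046).

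With all libraries the drought change of most members was close in size in N22 and IR64, and this rested on N22 drought library 3. The difference of the changes, N22 minus IR64, had a median of -0.07 and ran from -0.68 to 0.81, and 96 members lay within 0.25 of 0. The fall was larger in N22 for 95 members and in IR64 for 55. In the limma test of the difference 0 members were called and 0 had an unadjusted p under 0.05, while 0.247% of all loci tested and 0.0138% of those that meet the floor were called. The rule favours loci with falls of like size, and this count is a description. Without N22 drought library 3 the median change was -2.49 in N22 and -1.93 in IR64, the median difference was -0.59, and 22 members lay within 0.25 of 0. The fall was then larger in N22 for 144 members, and 49 had an unadjusted p under 0.05. In that fit 2 members were called, with differences of -1.47 and -1.48 that were -0.48 and -0.52 with all libraries. Shares over all loci in that fit are not given. Leaving out the N22 drought library that was highest for all 150 members enlarges each N22 fall, so nothing is read from these counts. Over all loci, those called lower in N22 went from 1254 to 1977 without this library, so larger falls were not confined to the members. Without N22 drought library 2 the median difference was 0.29, and the fall was larger in IR64 for 134 members. Without N22 drought library 1 it was larger in IR64 for 93. The drought mean of the 14 named members, without the third drought libraries, was 8.73% to 23.7% of the control mean in N22 and 19.2% to 34.5% in IR64. Leaving out N22 drought library 3 lowers each of these N22 percentages, as it was the highest N22 drought library for all 150 members. The order of the cultivars in these percentages is therefore not read, and the share over all eligible loci is not given. None of the 14 was called in the limma test of the difference without N22 drought library 3 (adjusted p from 0.165 to 0.971).

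The most uneven members were these. On chromosome 4, a member measured 37.1, 50.1 and 99.0 FPKM in N22 drought, against 196, 328 and 196 FPKM in N22 control. The IR64 libraries gave 31.2, 53.0 and 45.3 FPKM in drought, against 272, 304 and 342 FPKM in control. Its fall was larger in IR64 by 0.81. On chromosome 3, a member had a fall larger in N22 by 0.68, with 7.0, 2.7 and 23.0 FPKM in N22 drought, against 61.1, 61.9 and 48.3 FPKM in N22 control.

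**Figure D5:**
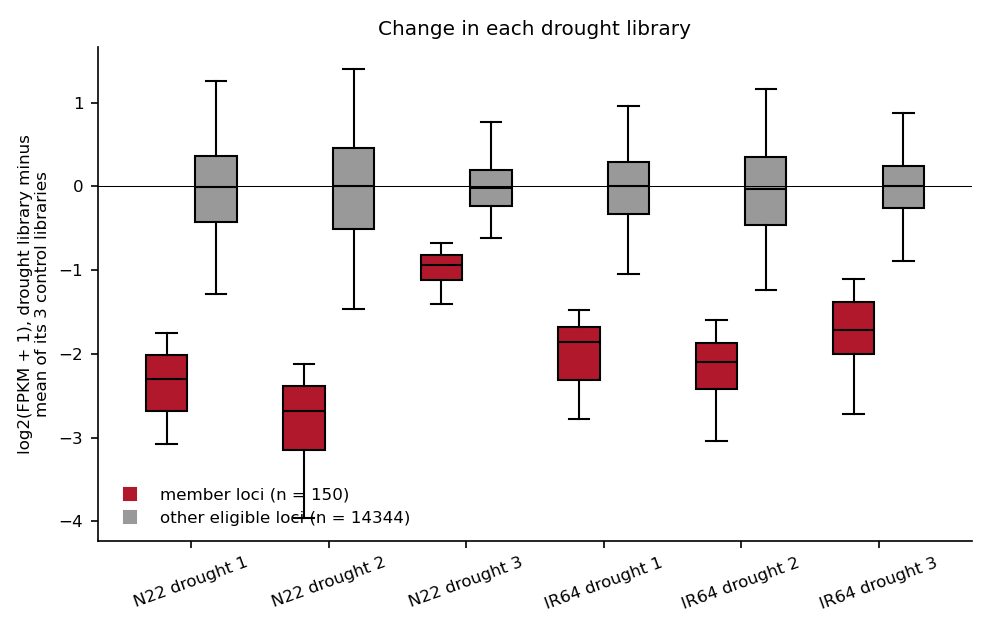
For each drought library, red boxes give the 150 members and grey boxes the 14344 other eligible loci as log2(FPKM + 1) minus the mean of the 3 control libraries of the cultivar. Boxes span the quartiles with the median, and whiskers the 5th to 95th percentile. Grey boxes centre near 0 everywhere, and the red box of N22 drought library 3 is the nearest to 0.

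The drought libraries differed in how far the set fell. Against the mean of the N22 controls the members' median change was -2.30, -2.68 and -0.94 in N22 drought libraries 1, 2 and 3, and against the IR64 controls -1.86, -2.09 and -1.71 in the IR64 drought libraries. N22 drought library 3 was the highest of the N22 drought libraries for all 150 members, and 67 of them fell there by at least 1. Even so, 149 members were below all 3 control libraries in it. In IR64 the third drought library was the highest for 86 members.

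Libraries that took no part in the choice give a reading that is free of it. The 150 loci were chosen again without the 4 libraries of one number, and their change was then read in those 4. Left out, number 1 gave medians of -2.29 in N22 and -1.77 in IR64, and number 2 gave -2.66 in N22 and -2.10 in IR64. Left out, number 3 gave -0.82 in N22 and -1.61 in IR64, and 122 of the loci chosen without it are members of the set. Of these 150 loci, 148 were below 0 in N22 and 23 at or below -1, and in IR64 150 were below 0 and 131 at or below -1. Over all eligible loci the medians with number 3 left out were -0.02 in N22 and 0.00 in IR64, with 0.338% and 4.45% at or below -1. This reading, on 1 drought and 1 control library per cultivar, has no replicate error of its own and was chosen after the data were seen.

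Members lay on all 12 chromosomes. Chromosome 2 held 24 and chromosome 3 held 22, while chromosome 9 held 3. As a share of eligible loci this was 1.38% on chromosome 2, 1.03% on chromosome 3 and 0.386% on chromosome 9, and the highest share was 1.90% on chromosome 11, with 12 members. By locus number, 31 members (20.7%) were flanked on at least 1 side by an eligible locus that fell by at least 1 in both cultivars, beside 10.1% of all eligible loci. Members adjacent to another member numbered 8 (5.33%), beside 2.05% of all eligible loci next to a member. These shares are given without a test.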

How the data were processed

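Rice seedlings were profiled by RNA sequencing, 12 libraries in 4 groups of 3, grouped and numbered by the submitters' labels. The deposited values are FPKM, made by the authors with Cufflinks 2.2.1 after mapping with TopHat2 2.1.1 to the RGAP 7.0 genome indexed with bowtie 2.3.3.0, per the labels' processing notes and the design text of the series. NGSQC Toolkit 2.3.3 had filtered the reads, and edgeR, named there for the authors' own comparison, was not used here. The design text says that a value missing in 1 of 3 replicates was filled with missForest, and whether the deposited tables include such filled values is not stated. Depth is unknown: of the ratios between low values, 2.11% to 16.63% lay within 1% of the commonest, and read numbers were not recovered.

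Rows of one name were summed and a missing row was set to 0, although an estimate may also fail. The 24276 loci tested reached an FPKM of 1 in 2 of 3 libraries of at least 1 group. Group means of log2(FPKM + 1) were fitted over all 12 libraries with limma 3.58.1 (R 4.3.3, intensity trend, two-sided), adjusted by Benjamini-Hochberg over all loci in each of 5 contrasts, and the call needed an adjusted p up to 0.05 with a change of 1 or more in size. The script was tested on simulated data. Libraries that share a number deviated together from their group means (12 of 12 correlations between groups compared above 0.1, 0.118 to 0.595). Between groups not compared the lowest correlation was 0.057, for IR64 drought with N22 control, number 3. The label numbers may thus pair the samples. The main fit, which gave the p-values unless stated otherwise, ignored such pairing, and a fit with a replicate block was an alternative. Plots were drawn with matplotlib 3.10.9.

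The members and gene lists were chosen with earlier results of these data known. Of 226 pairs of symbol and locus, 13 of them added after values were seen, 154 had a symbol or synonym in a RefSeq gene table (ASM3414082v1) on the same chromosome within 4 Mb of the expected place, and only these are named. Among the other pairs, 7 had their symbol on another chromosome only. Listed genes were named by largest fall, and CAB1R, SUT1, SWEET13, TIP1-2, EXPA1, EXPA6, EXPB4, LSI1, LSI2, PIP2-7 and MCM4 were chosen after their values were seen. The rule foresaw more members by identifier, but for loci without a product 2 identifiers were printed.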

Additional observations from a re-analysis of the deposited data

How the results depend on the processing

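The set depended moderately on how it was chosen. With another floor, pseudocount, score, scaling or row handling, or without 1 library, 124 to 149 of the 150 loci were chosen again. Without the third drought library of both cultivars 122 were, and 81 were in all 19 settings. RCA, EXPA4, LAC20, SUS1, RR10 and LFNR1 are not among these 81, unlike the other named members. In the cultivar comparison in control, the 5 calls became 3 with a pseudocount of 0.1 and 3 with no filter on low values, and 2 to 6 without single libraries. Under drought the 4 calls became 2 in a fit of only the libraries compared and 3 to 15 without single libraries. In the difference of responses the 0 calls became at most 2 without single libraries. For these member counts the shares over all loci in the same fits are not given. Loci called lower in N22, 1254, ran from 737 to 1977 without single libraries, those in IR64, 976, from 762 to 1292, and listed loci lower in both, 30, from 16 to 34. Without the third drought library of both cultivars, a setting chosen after the data were seen, 2007 loci were called lower in N22, 8 members between the cultivars under drought and 2 in the difference. Without all libraries numbered 3, chosen likewise, these were 2014, 8 and 0. The cause was not tested.

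With the replicate block, 1289 loci were called lower in N22 and 1020 in IR64, 30 listed loci in both, 5 members between the cultivars in control and 6 under drought, and 0 in the difference. All 150 members were then called lower in each cultivar. In a fit of only the libraries compared, 111 members were called lower in N22 and 144 in IR64, beside 985 and 943 of all loci. The difference of responses needs all groups and has no such fit. The depth in reads is unknown, so loci with low values carry a counting error that cannot be given.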
